A study of Mus musculus with 90 samples.

Results

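The comparison is the first response of MyoD-/- primary mouse myoblasts to differentiation medium: cells collected at 6h against cells of the same cultures collected at 0h. Its members are the 18 arrays, of 90 in the series, whose titles give 6hr or 0hr, 9 arrays at each time. At each time there were 3 cultures, named 1999, P6 and P10 in the labels, and each RNA was hybridised to 3 Affymetrix chips, MG_U74Av2, MG_U74Bv2 and MG_U74Cv2, which carry different probe sets. At 6h the cells had been changed to differentiation medium, which is high-glucose DMEM with 2.5% horse serum. At 0h they were in growth medium, which is Ham's F10 nutrient mixture with 20% FBS, 250 ng/ml bFGF, penicillin, streptomycin and glutamine, on collagen-coated plates. The cells of every group lacked MyoD, and no wild-type arrays were used here, so a change at 6h cannot be assigned to the missing gene. Neither the age of the mice nor the meaning of the culture names is given in the labels. Where the model held time alone, p-values measure the spread between these 3 cultures within a time. Where it also held culture as a block, they measure the spread left after each culture's own level is removed. The times after 12h entered the models only to estimate these spreads and to follow the genes named at 6h. They also counted in the filter on dim probe sets and in the added value, both described below. A probe set could thus be tested because of its later signal.

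MyoD is a basic helix-loop-helix transcription factor that commits cells to the muscle lineage, and Myf5 is its closest relative. Removing serum and FGF from myoblasts lowers ERK, PI3K and Myc activity, after which the cells leave the cell cycle, switch on myogenin and then structural muscle genes, and fuse. Myoblasts without MyoD are known to leave the cell cycle and to differentiate late and incompletely. In growing cells E2F factors drive the genes of DNA replication, while FoxO and TFEB factors, which PI3K and mTOR signalling hold back, drive genes of growth arrest, autophagy and lysosomes.

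Values are MAS5 signals in arbitrary units, and 3 signals in a row are those of cultures 1999, P6 and P10. Log2 and fold changes are of the signal plus an added value, the 25th percentile of the chip's table (119.8, 270.1 and 213.0 on MG_U74Av2, MG_U74Bv2 and MG_U74Cv2), which understates the change of dim probe sets. Signals of different probe sets are not comparable as levels, and a signal summed over a list is weighted towards its brightest probe sets. Adjusted p-values are Benjamini-Hochberg values over all tested probe sets of the 3 chips, and a probe set was tested where at least 3 of its 30 arrays lay above the chip median. Mean signal lay between 2361.9 and 2532.4 on the MG_U74Av2 arrays, between 2024.1 and 2142.1 on MG_U74Bv2 and between 2640.0 and 2827.5 on MG_U74Cv2. Arrays were grouped into scan sessions by recorded scan date, or by culture name where no date was recorded. Undated arrays of a culture share a session by that rule, and their number is not given here. The 0h and 6h arrays of a culture shared a session in 9 of 9 culture and chip pairs. Between these times culture and scan session therefore cannot be told apart. Over all times the arrays fell into 6, 5 and 5 sessions on the 3 chips. The labels give the same RNA concentration for the 6h and the 12h sample of each culture. The 12h arrays were not copies of the 6h arrays, since 8.9%, 10.7% and 10.0% of the 24307 tested probe sets differed more than 2-fold between 12h and 6h in cultures 1999, P6 and P10, against 11.4%, 13.7% and 14.2% between 6h and 0h. Of 14 myoblast markers tested, 12 had a mean signal over the chip median. So did 3 of 6 fibroblast, 5 of 9 smooth muscle and pericyte, and 2 of 4 adipocyte markers tested. The counts were 1 of 4 for endothelial, 2 of 3 for macrophage and leukocyte, and 4 of 7 for neural and glial markers. Tested probe sets had already passed a filter on that median. Among the 12 was Myod1, whose probe set read 3002, 2719 and 4530 at 6h and 3008, 3803 and 4389 at 0h. Whether that probe set lies in the deleted part of the gene is not given in the sources used here, so it does not check the genotype. Markers of other cell types are described after the results.

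At 6h, 41 probe sets (0.169% of those tested) differed from 0h at an adjusted p under 0.05 in limma's model of time alone. Of these, 24 (0.0987%) were higher and 17 (0.0699%) were lower at 6h. With culture as a block the count was 268 (1.1%), of which 157 (0.646%) were higher and 111 (0.457%) were lower, and all 41 were among them. In that blocked model the higher probe sets named 135 genes and the lower ones 91 genes, of 12373 genes tested. All 268 had 1 direction in the 3 cultures, and the signals of the 6h and 0h groups did not overlap for 247 of them. Without overlap but regardless of any test, 7.42% of all tested probe sets were higher and 7.29% were lower at 6h. The median log2 change over all tested probe sets was 0.002, so lists of genes are read against a centre near 0. The count of 41 was 7 without culture 1999, 22 without P6 and 0 without P10, and the count of 268 was 22, 136 and 14. These were partly other probe sets. Of the 41, only 5, 8 and 0 were among the calls without the block, and 8, 22 and 6 among those with it. Fitted on the 6 arrays of 0h and 6h of each chip alone, 0 probe sets were called with or without the block (limma, 2619 and 2157 with unadjusted p below 0.05), so the calls rest on the spread estimated over all 10 times. Of 28 named genes called with time alone, 0 stayed called in that model when each culture was left out in turn, and of 76 named genes called in the blocked model 2 did, Itm2a and C1qtnf3. In RNA of whole cultures, a change in the share of cells of a type and a change in RNA per cell cannot be told apart. Counts over a gene list take 1 probe set for each gene, and a gene called on another probe set is named beside them. The shares of all probe sets set against these counts include several probe sets of some genes and those without a symbol. The 2 units are therefore not the same, and the shares are only a rough background.

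**Figure D1:**
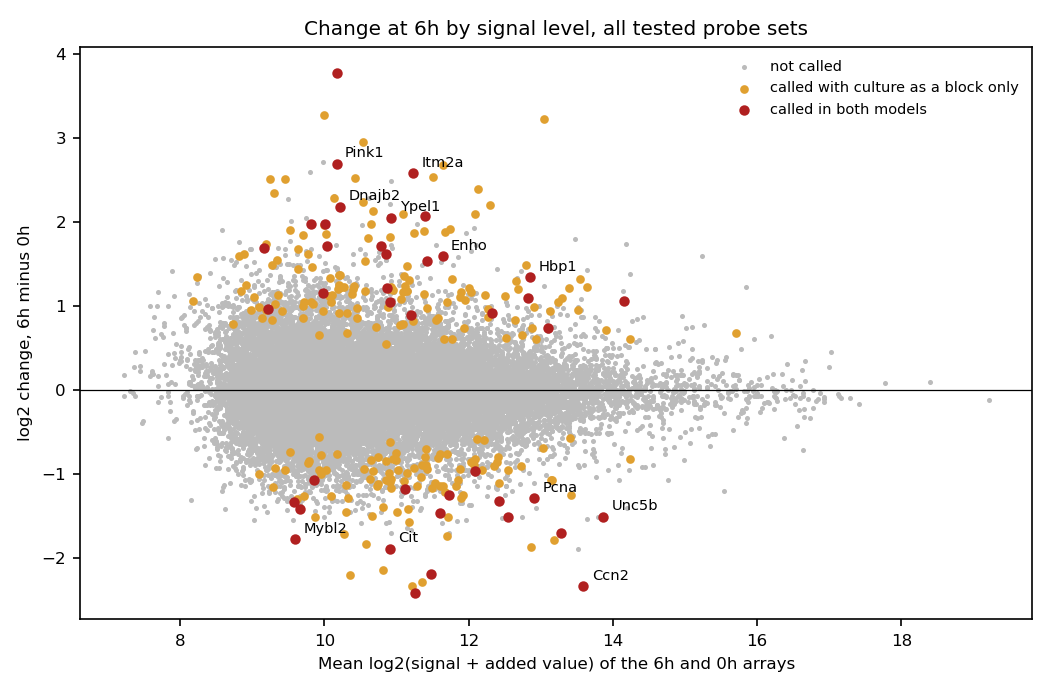
Change at 6h against 0h on the log2 scale (vertical) by mean log2 signal of the 6h and 0h arrays (horizontal) for 24307 probe sets, with the 41 called in both models in red and those called only with culture as a block in orange. Calls lie on both sides of 0 and at most signal levels, from Ccn2 and Mybl2 below to Itm2a and Pink1 above.

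The genes called higher in the model of time alone included regulators of growth and of protein and organelle turnover. Itm2a, a membrane protein of developing muscle and cartilage, read 4088, 4921 and 9382 at 6h, against 578, 984 and 1097 at 0h. The groups were far apart, with a log2 change of 2.58 ± 0.36 (SE, adjusted p = 0.0031, limma), a 5.99-fold rise. Pink1, the kinase that marks damaged mitochondria for removal, read 2542, 1794 and 4260 at 6h and 166, 173 and 420 at 0h, a 6.44-fold rise on the scale with the added value (adjusted p = 0.0081, limma). The other tested probe sets of Pink1 gave log2 changes of 0.66 and -0.80, and neither was called with the block. Both the direction and the size of its change therefore rest on 1 probe set. The suffix of that probe set, _f, marks one that may also match related transcripts, as do those of Dnajb2, Ypel1, Ildr2, Mustn1 and Wee2 named below. Enho, which encodes the secreted peptide adropin, read 4022, 6399 and 5723 at 6h, against 1153, 1922 and 1743 at 0h. Its log2 differences lay close together in the 3 cultures, and its log2 change was 1.59 ± 0.30 (SE) with an adjusted p of 0.018 (limma). Hbp1, a repressor that restrains cell cycle and Wnt target genes, read 11954, 11883 and 10607 at 6h and 5231, 3898 and 4050 at 0h (log2 change 1.34 ± 0.23, adjusted p = 0.011, limma), while its other probe set gave a log2 change of -0.04 and so did not share the rise. Ccng2, an atypical cyclin made in arrested cells, read 3528, 2110 and 3890 at 6h, against 832, 1391 and 529 at 0h, and its smallest rise was in P6.

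Gstm2, a glutathione transferase, read 3749, 5095 and 5050 at 6h and 1448, 1606 and 1469 at 0h, although its other probe sets gave log2 changes of -0.05 and -0.29. Ssbp2, a partner of the LIM-domain-binding protein Ldb1, read 2878, 2874 and 2430 at 6h and 987, 1140 and 1218 at 0h. Both genes rose with 6h and 0h values that did not overlap, by 2.89-fold and 2.31-fold (adjusted p = 0.011 and 0.013, limma). Pard6a, a scaffold of the cell polarity complex, read 877, 1001 and 875 at 6h, against 96, 491 and 129 at 0h. Hspa1b, an inducible heat shock chaperone, read 4716, 1733 and 3689 at 6h and 1010, 922 and 885 at 0h (adjusted p = 0.045, limma). Its near-identical neighbour Hspa1a read 2713, 959 and 1762 at 6h and 579, 730 and 665 at 0h and passed only with culture as a block (adjusted p = 0.035, limma), and the probe sets of such close copies cannot be fully told apart. The remaining genes named by size among the higher calls were Dnajb2, a co-chaperone, Ypel1, Ccpg1, a receptor for autophagy of the endoplasmic reticulum, Ildr2, Snx21, a sorting nexin, and Acnat2, a peroxisomal acyltransferase, with log2 changes between 1.15 and 2.18. The other probe sets of Dnajb2, Ypel1, Ildr2 and Ccpg1 gave smaller changes, between -0.04 and 0.92.

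Further genes rose only with culture as a block. Ogn, the matrix proteoglycan osteoglycin, read 901, 3095 and 9653 at 6h and 33, 65 and 1141 at 0h, and its other probe set rose as well, by 2.95 on the log2 scale. C1qtnf3, a secreted C1q-like factor, read 3593, 8112 and 17224 at 6h, against 619, 922 and 2546 at 0h. Levels of C1qtnf3 differed several-fold between cultures within each time, while its log2 differences within cultures were close, at 2.33, 2.98 and 2.70 (adjusted p = 3.1e-05 with the block and 0.45 without it, limma). Aldh1a1, which makes retinoic acid from retinaldehyde, read 1567, 1048 and 1431 at 6h and 101, 162 and 146 at 0h (blocked adjusted p = 0.039, limma). Lrrc17, Mustn1, a small protein of muscle and skeleton, St3gal5, the enzyme that makes the ganglioside GM3, Dipk2a, Nol4 and Abca7, a lipid transporter, rose by between 2.09 and 2.53 on the log2 scale. For these genes the model of time alone gave adjusted p between 0.053 and 0.51 (limma).

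**Figure D2:**
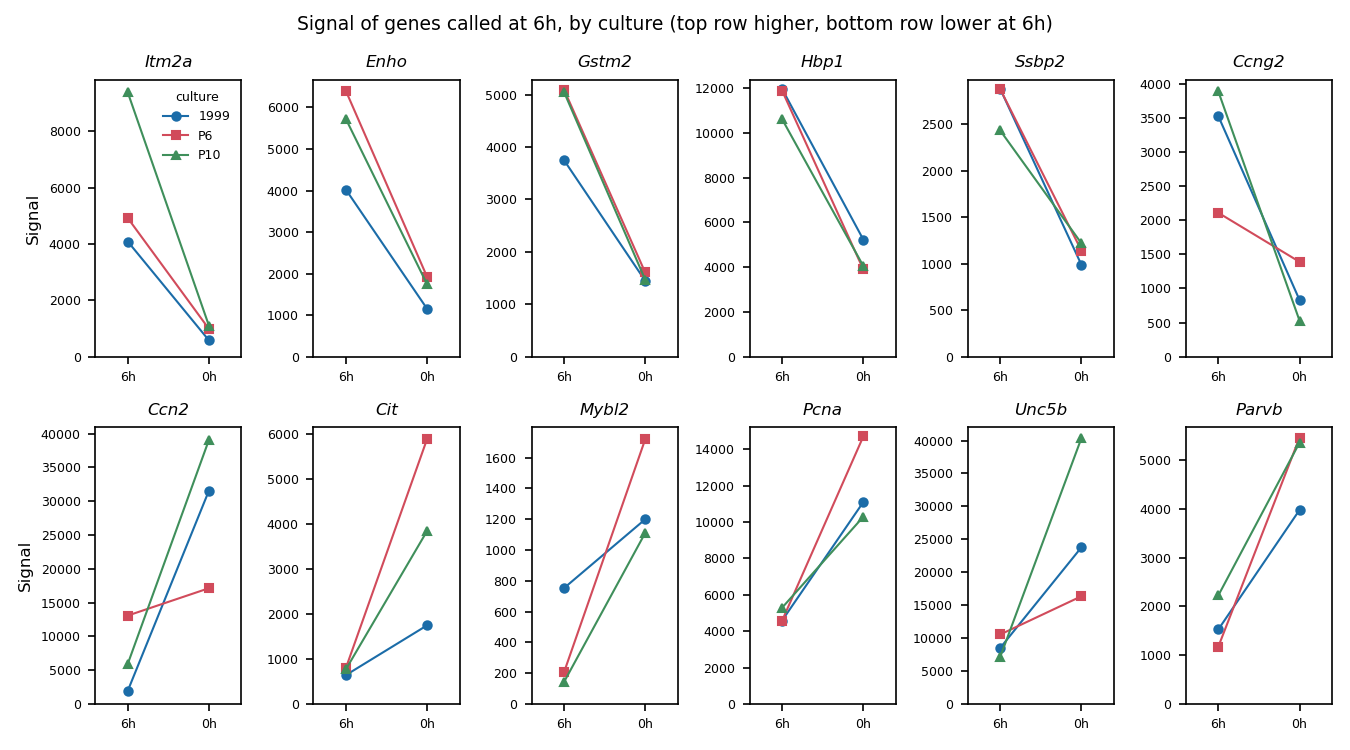
Signal (MAS5 units, linear axes from 0) of 12 genes called in both models, at 6h and 0h, with a line for each of the cultures 1999, P6 and P10. The top row holds genes higher at 6h and the bottom row genes lower at 6h, and in each panel the 3 signals at 6h do not overlap those at 0h.

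Among the genes called lower in the model of time alone, Ccn2, the matricellular growth factor driven by YAP and TGF-beta, fell most of the named ones. It read 1944, 13074 and 5926 at 6h, against 31568, 17124 and 39084 at 0h, a fall by 5.07-fold (adjusted p = 0.026, limma). The fall was small in P6, by 0.39 on the log2 scale, and large in 1999 and P10, by 3.94 and 2.70. Unc5b, a netrin receptor, read 8505, 10543 and 7139 at 6h and 23781, 16353 and 40359 at 0h (adjusted p = 0.015, limma), and it too fell least in P6. Parvb, a focal adhesion protein that binds integrin-linked kinase, read 1527, 1174 and 2225 at 6h, against 3977, 5460 and 5358 at 0h (adjusted p = 0.013, limma). Cit, the citron kinase of cytokinesis, read 640, 797 and 768 at 6h and 1745, 5883 and 3841 at 0h, so that cultures far apart at 0h were close together at 6h, and its other probe set gave -0.46. The probe set annotated to Hmga2-ps1, a pseudogene copy of Hmga2, read 2870, 3111 and 3937 at 6h and 6216, 9386 and 16323 at 0h (adjusted p = 0.013, limma). Transcripts of that copy and of its parent gene, an architectural chromatin protein of growing cells, cannot be told apart here.

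Further genes fell only with culture as a block. Btbd11 read 402, 529 and 1949 at 6h and 3276, 5911 and 6653 at 0h (blocked adjusted p = 0.025, limma). Cspg4, the NG2 proteoglycan of pericytes and of immature cells, read 320, 427 and 1239 at 6h, against 4159, 1826 and 5531 at 0h (blocked adjusted p = 0.024, limma). Has2, which makes hyaluronan, read 3073, 612 and 1767 at 6h and 12908, 2655 and 5501 at 0h, and its other probe set fell by 1.57 on the log2 scale. Fkbp5, a chaperone of steroid receptors induced by glucocorticoids, read 1556, 784 and 775 at 6h and 3351, 3060 and 2128 at 0h. Nfatc1, a calcineurin-dependent transcription factor, Col7a1, the anchoring fibril collagen, Twistnb, a subunit of RNA polymerase I, Fam110c, Wee2 and Dst, a cytoskeletal linker, had log2 changes between -1.84 and -1.40 in the same model, Fkbp5 being the smallest. The other probe set of Wee2 gave -0.14.

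Of 40 tested members of the list of G1, S phase and DNA replication genes, 36 had lower values at 6h, 3 fell in the model of time alone and 10 fell with culture as a block, against a background of 0.457% of probe sets lower in that model. None rose in either model. The median log2 change was -0.73, and it was -0.67, -1.19 and -0.35 in cultures 1999, P6 and P10. Mybl2, which encodes the B-Myb factor that acts from S phase to mitosis, read 752, 205 and 142 at 6h and 1199, 1718 and 1110 at 0h (adjusted p = 0.011, limma), with its highest 6h signal in culture 1999, while its other probe set gave a log2 change of 0.08. Pcna, the sliding clamp of the replication fork, read 4585, 4576 and 5289 at 6h and 11096, 14705 and 10290 at 0h (adjusted p = 0.035, limma). Cdc6, which loads the replicative helicase at origins, read 610, 365 and 621 at 6h, against 1248, 1452 and 1027 at 0h (adjusted p = 0.039, limma). Orc6, a subunit of the origin recognition complex, read 1793, 1414 and 1469 at 6h and 3113, 4482 and 3281 at 0h, and Rrm2, the small subunit of ribonucleotide reductase, read 4059, 4226 and 6730 at 6h and 14883, 17958 and 18685 at 0h (blocked adjusted p = 0.0058 and 0.033, limma). Also lower with the block were Mcm2 and Mcm4, of the replicative helicase, Cdt1, which helps to load it, Rpa1, which coats single-stranded DNA, and Hells, a chromatin remodeller, with log2 changes between -1.14 and -0.86. Mcm3, of the same helicase, was called on another probe set, at -1.04. The proliferation marker Mki67 read 947, 840 and 1385 at 6h and 1495, 3210 and 1461 at 0h and did not pass in either model. In the list of G2 and mitosis genes, 42 of 43 had lower values, but Cit alone passed in both models, and the culture medians were -0.02, -1.32 and -0.19.

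The promoters of 4 replication genes that fell are shown because E2F factors, which are known to drive such genes, bind near the letters TCCCGC. Each line gives the 250 bases before the 5'-most RefSeq start of the gene in GRCm38.p6, read 5′ to 3′ on the gene's strand, with matches to TCCCGC or its reverse complement in capitals.
Mybl2 (chr2:163054385-163054634, plus strand): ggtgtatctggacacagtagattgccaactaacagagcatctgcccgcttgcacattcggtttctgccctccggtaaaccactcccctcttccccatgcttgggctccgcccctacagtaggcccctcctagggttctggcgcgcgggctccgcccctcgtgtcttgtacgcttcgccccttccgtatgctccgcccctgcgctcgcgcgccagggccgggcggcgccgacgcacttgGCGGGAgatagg
Cdc6 (chr11:98907901-98908150, plus strand): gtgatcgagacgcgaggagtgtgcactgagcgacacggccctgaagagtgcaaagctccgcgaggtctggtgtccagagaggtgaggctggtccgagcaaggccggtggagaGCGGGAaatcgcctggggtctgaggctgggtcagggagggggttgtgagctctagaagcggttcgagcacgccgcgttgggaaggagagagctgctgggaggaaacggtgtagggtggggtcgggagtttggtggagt
Mcm2 (chr6:88898781-88899030, minus strand): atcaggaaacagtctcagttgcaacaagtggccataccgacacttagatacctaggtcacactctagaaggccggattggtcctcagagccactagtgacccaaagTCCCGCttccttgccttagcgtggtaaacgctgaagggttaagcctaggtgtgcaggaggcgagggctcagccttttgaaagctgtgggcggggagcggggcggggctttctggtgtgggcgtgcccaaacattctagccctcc
Rrm2 (chr12:24708004-24708253, plus strand): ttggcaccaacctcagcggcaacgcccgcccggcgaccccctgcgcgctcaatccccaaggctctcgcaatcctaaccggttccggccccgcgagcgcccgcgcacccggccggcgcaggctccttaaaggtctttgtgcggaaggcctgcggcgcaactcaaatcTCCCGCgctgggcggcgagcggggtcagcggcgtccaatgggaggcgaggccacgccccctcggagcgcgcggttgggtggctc
The match in Mybl2 starts 12 bases before the gene's start, that in Rrm2 84 bases before it, that in Cdc6 138 bases and that in Mcm2 144 bases. Of the 35 tested members of the replication list with a promoter in the RefSeq table, 21 (60%) held the motif on either strand, against 28.9% of 9907 tested genes and 16.9% of all 27025 promoters of the table. Of the 10 called replication genes with a promoter, 6 held it. It was also held by 37.6% of the genes that rose and 46.1% of the genes that fell in the blocked model. In the list of purine, pyrimidine and folate synthesis genes, described below, the share was 60.9%. The motif was chosen with the changes and the sequences known, and a match is a description of the letters, not a bound site.

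In the list of ribosome biogenesis and Myc target genes, all 32 tested members had lower values at 6h and the median was -0.81. Yet 1 passed with the block, against 0.457% of all probe sets lower in that model. It was Cad, the enzyme that starts pyrimidine synthesis. Cad read 1249, 1472 and 919 at 6h and 2394, 2784 and 2948 at 0h (blocked adjusted p = 0.015, limma). Nolc1, a nucleolar phosphoprotein of the same list, was counted there by a probe set that was not called, and fell on another, with 1359, 1376 and 944 at 6h and 3759, 2402 and 3237 at 0h (adjusted p = 0.018, limma). Of its other 3 probe sets, 2 gave log2 changes of -1.11 and 1 gave -0.09. The list median was -0.89 in 1999, -0.22 in P6 and -1.08 in P10. Cytosolic ribosomal protein genes had a median of -0.06 over 15 tested members of 32 listed, with none called.

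The next lists were added after values had been seen, so their direction is no independent evidence. Among genes of purine, pyrimidine and folate synthesis, 6 of 25 tested members fell with the block, against 0.457% of all probe sets, and none rose. They included Shmt1, which feeds one-carbon units to folate, at 481, 920 and 437 at 6h and 1535, 1768 and 1450 at 0h (blocked adjusted p = 0.0085, limma), and Gart, of purine synthesis, at 1950, 1866 and 1968 at 6h and 4098, 3593 and 2745 at 0h (blocked adjusted p = 0.01, limma). In the nuclear pore and nuclear transport list, 36 of 40 members had lower values, 1 fell in the model of time alone and 5 with the block, against the same 0.457%. Nup85 was called on another probe set. Nup62, of the central channel of the pore, read 3547, 2127 and 3547 at 6h and 5078, 6367 and 6674 at 0h (adjusted p = 0.024, limma), and its other probe sets gave -0.95 and -1.02 on the log2 scale. Nup107, of the pore's outer ring, read 2167, 1355 and 2825 at 6h and 4888, 4737 and 5069 at 0h, and Xpo1, the main export receptor, read 1341, 943 and 1453 at 6h and 2323, 2661 and 3146 at 0h (blocked adjusted p = 0.0061 and 0.018, limma). The other probe set of Nup107 gave -0.10. The list median of the pore genes was nearly the same in the 3 cultures, at -0.37, -0.41 and -0.34.

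In the list of FGF and ERK feedback genes 13 of 16 members had lower values, with a median of -0.54 and culture medians of -0.53, -0.57 and -0.67, and for 9 members the lower 6h values did not overlap those of 0h, against 7.29% of all probe sets, but none passed either model. Ccnd1, the cyclin D that growth factors induce, read 7757, 14013 and 15603 at 6h and 24866, 24532 and 26344 at 0h (blocked adjusted p = 0.056, limma). Dusp5, a phosphatase of nuclear ERK, read 5578, 11384 and 5837 at 6h and 16933, 19823 and 29350 at 0h, and the ETS factor Etv4 read 859, 626 and 510 at 6h and 1451, 1005 and 1484 at 0h, with blocked adjusted p of 0.071 and 0.093 (limma). The other probe set of Etv4 gave -0.03. The 3 members with higher values were Spry2, Il17rd and Spry1, with log2 changes of 0.84, 1.11 and 0.57. Spry2 read 31990, 26378 and 23980 at 6h and 10422, 16699 and 19561 at 0h, without overlap. Spry1 was higher at 6h in all 3 cultures, while Il17rd was lower in P6. In the TGF-beta and BMP list, 1 of 21 members fell in the model of time alone and 3 with the block, against 0.457% of all probe sets, and Pmepa1 was called on another probe set. These were Ccn2, Smad7, an inhibitor of the receptors, and Skil, a repressor of Smad complexes. Smad7 read 1090, 2307 and 813 at 6h, against 5328, 2424 and 3643 at 0h (blocked adjusted p = 0.0097, limma), with nearly equal signals in P6. Skil read 3353, 3660 and 3556 at 6h and 6688, 5793 and 8374 at 0h (blocked adjusted p = 0.017, limma). Klf10, an early TGF-beta response factor counted with the immediate-early genes, read 2843, 1193 and 2624 at 6h and 4971, 5293 and 5049 at 0h (adjusted p = 0.026, limma). It was the only 1 of 23 tested immediate-early genes to pass, against 0.457% of all probe sets lower with the block, and it did so in both models.

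In the cell cycle exit list, 1 of 16 members rose in the model of time alone and 3 with the block, against 0.646% of all probe sets higher in that model, and none fell. Cdkn1a, the p21 inhibitor of cyclin-dependent kinases, read 16251, 17560 and 25538 at 6h, against 8947, 7662 and 8248 at 0h (log2 change 1.22, blocked adjusted p = 0.014, limma), and its other probe set gave 1.32. Tob1, an antiproliferative partner of the deadenylase complex, read 13523, 6870 and 12827 at 6h and 6220, 5662 and 4260 at 0h (blocked adjusted p = 0.04, limma), with its smallest rise in P6. In the FoxO and starvation list 17 of 20 members had higher values, with a median of 0.43, and Ccng2 was the 1 member called on the probe set counted. Pik3ip1, an inhibitor of PI3K, was called with the block on 2 other probe sets, with log2 changes of 1.81 and 1.33. Gadd45a, a stress-induced growth arrest protein, read 1763, 15462 and 2288 at 6h and 401, 1680 and 637 at 0h, with its highest signal in P6 at 6h (blocked adjusted p = 0.056, limma). In the list of Myc antagonists and growth repressors, added after values had been seen, 5 of 25 members rose with the block, against the same 0.646%. Ypel1, Ypel2 and Pik3ip1 were called on other probe sets. The 5 included Mxd4, which competes with Myc for Max, at 6897, 6743 and 7296 at 6h and 3530, 2630 and 3268 at 0h, and Castor2, of the arginine sensor family that restrains mTORC1, at 5722, 1648 and 4404 at 6h and 1529, 787 and 1068 at 0h (blocked adjusted p = 0.024 and 0.022, limma).

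Lysosomal and autophagy genes were listed after values had been seen. Of 47 tested lysosomal enzymes and membrane proteins, 43 had higher values and 6 rose with the block, against 0.646% of all probe sets, while none passed in the model of time alone. The culture medians were 0.47, 0.34 and 0.42, and the summed signal of the 47 lay between 336891 and 348127 at 6h, against 250374 to 256662 at 0h, so the sums did not overlap. Smpd1, the acid sphingomyelinase, read 5645, 6667 and 8240 at 6h and 2812, 3638 and 3909 at 0h (log2 change 0.96 ± 0.15 (SE with the block), blocked adjusted p = 0.0036, limma). Slc17a5, which exports sialic acid from lysosomes, read 2876, 1899 and 3242 at 6h, against 1314, 1068 and 656 at 0h, and Pld3, a lysosomal exonuclease, read 3341, 3618 and 4829 at 6h and 2067, 1794 and 2580 at 0h (blocked adjusted p = 0.019 and 0.026, limma). The other probe set of Slc17a5 gave -0.02. Among 36 autophagy genes 4 rose with the block, against the same 0.646%, namely Trp53inp2, Calcoco1, Nbr1 and Gabarap, and Pink1 and Ccpg1 were called on other probe sets. Trp53inp2, which helps to form autophagosomes and is abundant in muscle, read 2262, 3182 and 4933 at 6h and 1067, 1340 and 1668 at 0h (blocked adjusted p = 0.0085, limma). The cargo receptor Nbr1 read 4877, 3265 and 3881 at 6h and 2478, 2270 and 1752 at 0h, and the summed signal of the list was 139201 to 156009 at 6h, against 102457 to 111417 at 0h.

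The promoters of 2 lysosomal genes that rose are shown because TFEB, a factor known to drive lysosomal genes, binds the E-box CACGTG, as does Myc. The window and the RefSeq build are as above, and the capitals mark CACGTG, which reads the same on both strands.
Arsa (chr15:89477425-89477674, minus strand): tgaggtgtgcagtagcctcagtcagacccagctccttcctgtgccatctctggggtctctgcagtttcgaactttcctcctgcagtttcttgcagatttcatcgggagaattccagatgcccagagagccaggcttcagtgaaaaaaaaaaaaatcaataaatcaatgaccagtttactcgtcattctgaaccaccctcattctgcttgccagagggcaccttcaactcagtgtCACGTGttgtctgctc
Ctsf (chr19:4854915-4855164, plus strand): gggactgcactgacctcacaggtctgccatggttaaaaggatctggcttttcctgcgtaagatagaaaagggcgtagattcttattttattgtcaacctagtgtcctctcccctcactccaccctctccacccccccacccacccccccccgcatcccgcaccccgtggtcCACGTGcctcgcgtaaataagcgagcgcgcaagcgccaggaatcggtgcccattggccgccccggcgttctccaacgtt
In Arsa, the arylsulfatase A gene, the E-box starts 16 bases before the gene's start, and in Ctsf, the cathepsin F gene, 79 bases before it. The motif was held by 12 of 40 lysosomal genes with a promoter in the table (30%), against 8.27% of tested genes and 6.04% of all promoters. It was also held by 27.8% of the FoxO and starvation list, so it was not particular to lysosomal genes. Of the genes called with the block, 10.1% of those that rose and 10.5% of those that fell held it. The limits stated for the E2F letters hold here too. Of the 5 called lysosomal genes with a promoter, 2 held it. The FoxO letters GTAAACA, searched on both strands, were held by 2 of 18 genes of the FoxO and starvation list (11.1%), 2.26% of tested genes and 0.917% of the genes that rose with the block.

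Among the transcription factors, Myf5, the myoblast determination factor, read 5440, 5741 and 3087 at 6h, against 2451, 2466 and 1896 at 0h, without overlap, but with a blocked adjusted p of 0.083 (limma). Myod1 itself had a log2 change of -0.14 ± 0.31 (SE). Myog, which encodes myogenin, read 681, 2389 and 19456 at 6h and 1276, 927 and 2790 at 0h, and the groups overlapped, with a lower signal at 6h in culture 1999 and a higher one in P6 and P10. None of 16 tested myogenic transcription factors passed in either model. In the list of early muscle differentiation genes 29 of 31 members had higher values and 4 rose with the block, against 0.646% of all probe sets. The list median was 3.75 at 7d against 0h, and members could pass the filter through such later signals. Trdn, the triadin of the calcium release complex, read 599, 943 and 4857 at 6h and 56, 82 and 108 at 0h on the more changed of its 2 probe sets, with a 0h mean under the added value (blocked adjusted p = 0.023, limma). Cdh15, the M-cadherin of myoblast contacts, read 1158, 1380 and 3398 at 6h and 336, 1059 and 877 at 0h, and Chrng, a subunit of the fetal acetylcholine receptor, read 1042, 769 and 2659 at 6h and 174, 148 and 986 at 0h (blocked adjusted p = 0.0059 and 0.0096, limma). The fourth was Rapsn, which clusters that receptor, with a log2 change of 0.60. The list medians were 0.29 in 1999, 0.58 in P6 and 1.82 in P10, and the summed signal ranged from 41465 to 313232 at 6h, against 29082 to 47771 at 0h. Acta1, skeletal alpha-actin, read 581, 1534 and 50450 at 6h, against 129, 752 and 3561 at 0h. Acta1 and the fusion factor Mymk, which read 2015, 4512 and 54198 at 6h and 869, 1712 and 4493 at 0h, were chosen after their values were seen.

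The promoter of Chrng is shown because the myogenic factors bind the E-box CAGCTG, marked in capitals, which reads the same on both strands.
Chrng (chr1:87205561-87205810, plus strand): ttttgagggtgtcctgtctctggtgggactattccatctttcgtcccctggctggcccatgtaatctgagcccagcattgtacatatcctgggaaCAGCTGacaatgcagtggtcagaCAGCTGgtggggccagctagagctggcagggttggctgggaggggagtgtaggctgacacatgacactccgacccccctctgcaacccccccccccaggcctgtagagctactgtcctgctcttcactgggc
Its 2 matches start 155 and 132 bases before the gene's start. The motif was held by 12 of the 24 early muscle genes with a promoter in the table (50%), against 11.9% of tested genes. With the block, 15.6% of the genes that rose and 13.2% of those that fell held it. The limits stated for the E2F letters hold here too.

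Both called members of the insulin-like growth factor axis were binding proteins. Igfbp3 read 6950, 1401 and 3159 at 6h, against 805, 652 and 143 at 0h, and Igfbp6, which prefers IGF2, read 6486, 8971 and 12045 at 6h and 541, 3013 and 4425 at 0h (blocked adjusted p = 0.0058 and 0.0058, limma). They were the 2 of 17 members called with the block, against 0.646% of all probe sets higher in that model. Igf2, the ligand, read 890, 3380 and 29501 at 6h and 744, 935 and 4481 at 0h, with the same order of cultures as the contractile genes, and did not pass. In the matrix list 2 of 34 members rose with the block, against the same 0.646%, Ogn and Col3a1, a fibrillar collagen. Col3a1 read 8258, 8451 and 13398 at 6h and 2910, 5362 and 4745 at 0h (blocked adjusted p = 0.014, limma).

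**Figure D3:**
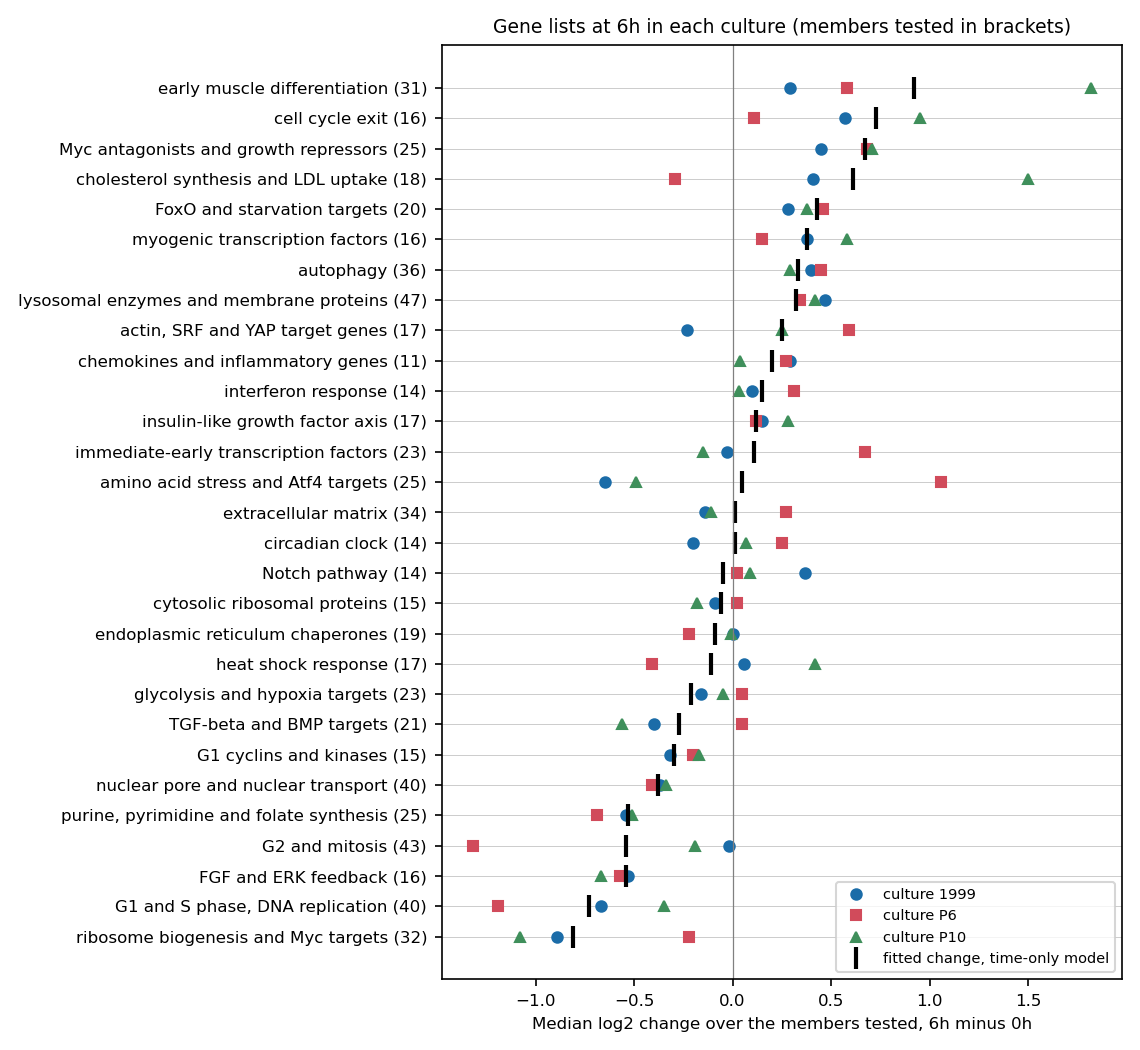
Median log2 change at 6h against 0h over the tested members of each gene list (number in brackets), for each culture (coloured points) and as fitted over the 3 cultures in the model of time alone (black bars). Culture medians lie close together for the lysosomal, nuclear pore and nucleotide lists and far apart for the Atf4, cholesterol, mitosis and muscle lists.

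All 18 tested genes of cholesterol synthesis and LDL uptake had higher fitted values at 6h, but the culture medians were 0.41 in 1999, -0.29 in P6 and 1.5 in P10, and none passed either model. Hmgcs1, the HMG-CoA synthase of the cytosol, read 1962, 887 and 8253 at 6h, against 924, 1193 and 1361 at 0h, and was chosen after its values were seen. Pmvk, phosphomevalonate kinase, read 1705, 1064 and 2409 at 6h and 192, 744 and 1094 at 0h, and Lss, lanosterol synthase, read 627, 453 and 1857 at 6h and 277, 211 and 501 at 0h (blocked adjusted p = 0.12 and 0.16, limma). The list of amino acid stress and Atf4 targets had culture medians of -0.65, 1.06 and -0.49, with none of 25 called. Ddit3, the stress factor CHOP, read 1524, 18686 and 713 at 6h and 688, 1008 and 1108 at 0h, so that 1 array stood far above the other 5. Vegfa, which Atf4 and hypoxia induce, read 367, 1937 and 622 at 6h and 1383, 1528 and 3160 at 0h, and Hk2, a hexokinase, read 295, 1025 and 356 at 6h and 2045, 987 and 2047 at 0h, both lower at 6h in 1999 and P10 and not in P6. A test of whether 1 culture's change differed from the mean of the other cultures' changes, added after the values were seen, called no probe set for 1999, 2 for P6 and none for P10 (limma), against 999, 1559 and 1145 probe sets at an unadjusted p under 0.05. Neither belongs to the muscle, cholesterol or Atf4 lists. Each culture had 1 array of a chip at 0h and at 6h, so the spread in that test comes from the later times only.

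**Figure D4:**
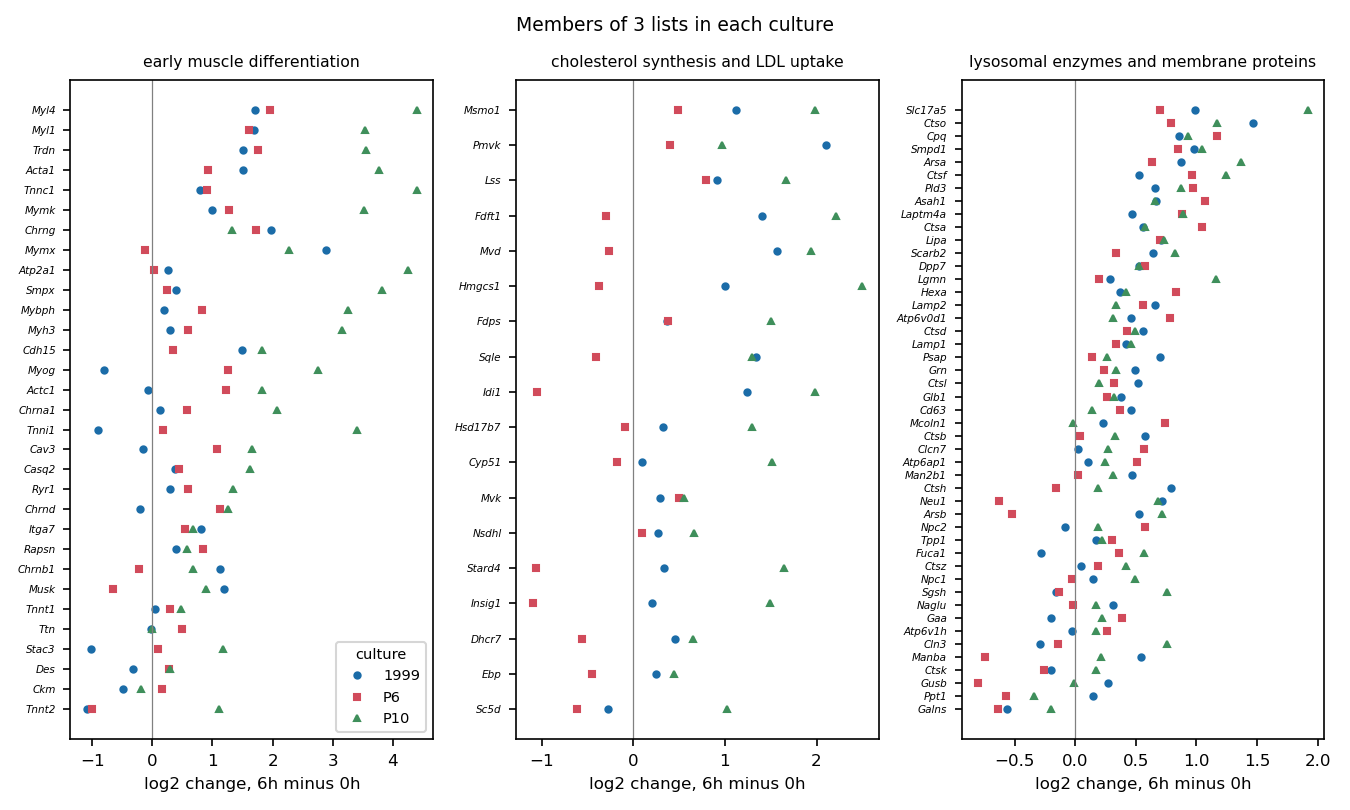
Log2 change at 6h against 0h of each tested member of 3 lists, with a point for each culture and members sorted by the fitted change. P10 lies to the right of the other cultures for most muscle and cholesterol genes, and the 3 cultures are mixed for the lysosomal genes.

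Against 0h, Itm2a had mean log2 changes of 2.58 at 6h, 2.99 at 12h, 4.30 at 24h and 4.65 at 7d. Mybl2 had -1.78 at 6h, -2.32 at 12h, -2.13 at 24h and -2.65 at 7d. Ccn2 had -2.34 at 6h, -2.23 at 12h, -0.95 at 24h and -0.29 at 7d, and the called probe set of Nolc1 had -1.18, -1.28, -0.54 and -0.37 at these times. The probe set of Nolc1 counted in its list had -1.11, -1.09, -1.76 and -1.59, so the 2 did not share the later course. A test of 6h against the mean of 0h and 12h called no probe set when time was fitted alone (limma, 777 with unadjusted p below 0.05). The blocked model called 1, Pde3b, a phosphodiesterase that degrades cAMP, which read 169, 115 and 389 at 6h and 834, 905 and 1118 at 0h and had a log2 change of -0.05 at 12h (blocked adjusted p = 0.049, limma). Its 6h mean lay under the added value, and its other probe sets gave 6h changes near 0 and of -0.35. Dst read 404, 307 and 554 at 6h, against 1585, 2250 and 2180 at 0h, and had log2 changes of -0.56 at 12h and -0.33 at 24h, but its other probe set gave -0.02 at 6h. Acnat2 read 1791, 1633 and 1475 at 6h and 463, 248 and 245 at 0h, with a log2 change of 1.09 at 12h (unadjusted p = 0.00016 in the test against both neighbouring times, limma). Zcchc18, Vps13b and Gtpbp6 had the other smallest p in that test, each lower at 6h and without a call.

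**Figure D5:**
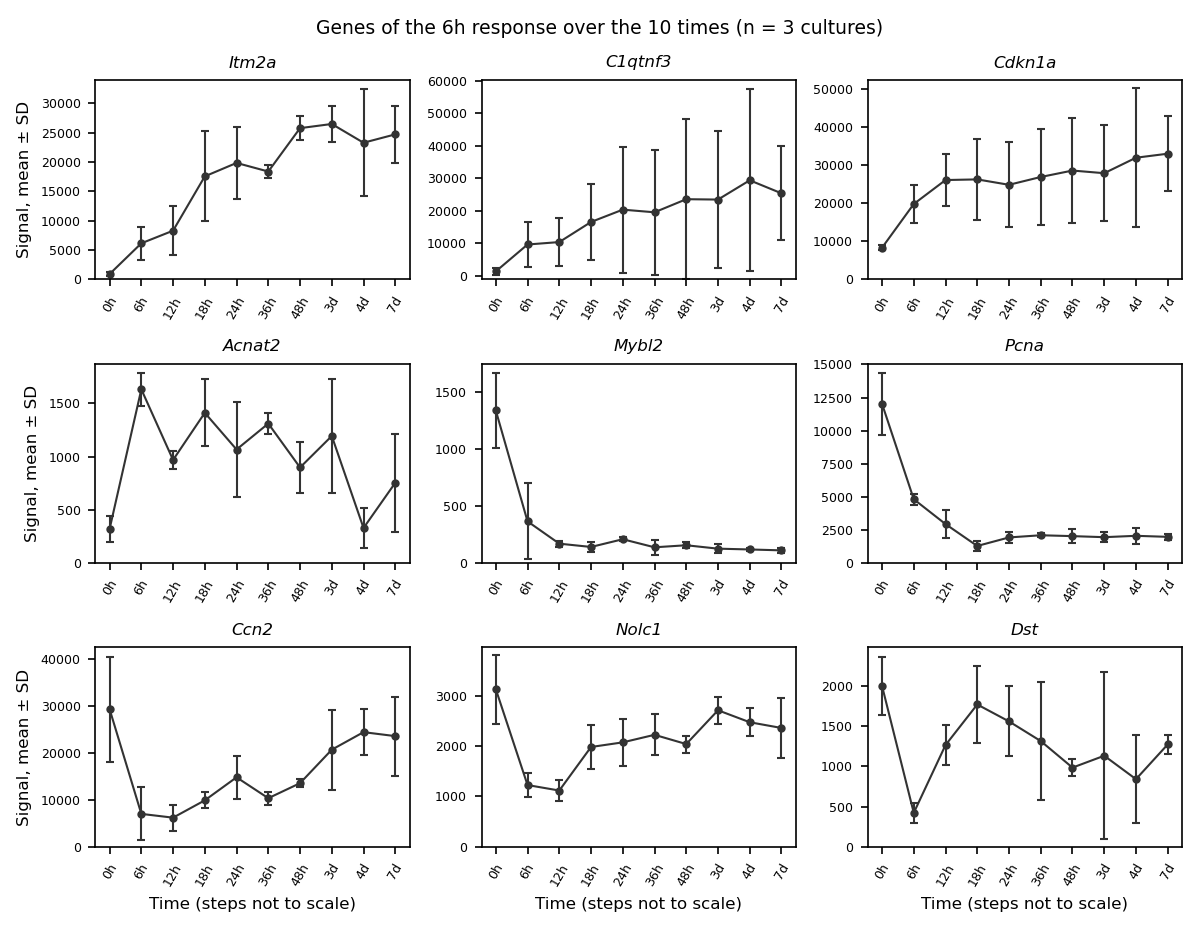
Signal (mean ± SD, n = 3 cultures, MAS5 units) of 9 genes at the 10 times from 0h to 7d, spaced evenly. Itm2a, C1qtnf3 and Cdkn1a stay high after 6h, Mybl2 and Pcna stay low, Ccn2 and the called probe set of Nolc1 recover in part, and Dst is lowest at 6h.

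On the probe sets counted, none was called in either model among 19 endoplasmic reticulum chaperones, 14 Notch pathway genes, 14 clock genes, 11 chemokine and inflammatory genes, 14 interferon response genes and 15 G1 cyclins and kinases. Of these lists 1 gene, the chaperone Dnajb9, was called with the block on another probe set, at 0.94. Jag1, a Notch ligand, read 944, 859 and 399 at 6h and 2755, 2048 and 2013 at 0h without overlap (blocked adjusted p = 0.076, limma), although 1 of its other probe sets gave -0.10, and Bhlhe40, a clock repressor, read 477, 693 and 485 at 6h and 1592, 1794 and 1516 at 0h (blocked adjusted p = 0.069, limma). In the heat shock list Hspa1a and Hspa1b were the 2 of 17 called, against 0.646% of all probe sets higher with the block. Hspa4l was called on another probe set. In the glycolysis and hypoxia list Ndrg1, a stress-induced growth regulator, was the 1 of 23 called, against the same 0.646%. Ndrg1 read 1497, 4492 and 990 at 6h and 266, 605 and 387 at 0h (blocked adjusted p = 0.018, limma). In the list of actin, SRF and YAP targets Ccn2 was the 1 of 17 called, against 0.457% of all probe sets lower with the block. Acta2, smooth muscle actin, read 20671, 14422 and 30171 at 6h and 19004, 3619 and 6465 at 0h (blocked adjusted p = 0.079, limma), while its other probe set gave 0.12.

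Of the macrophage and leukocyte markers 3 of 11 passed the filter on dim probe sets and of the endothelial markers 4 of 10. Those that passed were Csf1r, Cd14 and Laptm5, and Kdr, Flt1, Esam and Eng, while Ptprc, Adgre1, Pecam1 and Cdh5 did not. The summed signal of the endothelial markers was 2718 to 3787 at 6h, against 3304 to 3838 at 0h, and that of the leukocyte markers was 3698 to 7921 at 6h and 3699 to 6952 at 0h. Adipocyte markers, 4 of 10 tested, summed to 6553 to 17216 at 6h and 5884 to 7676 at 0h, with the high value in culture 1999. Neural markers, 7 of 12 tested, summed to 10148 to 21368 at 6h and 12327 to 20686 at 0h. Fibroblast markers, 6 of 12 tested, summed to 86393 to 116548 at 6h and 79336 to 100942 at 0h, and Col3a1 was the 1 called. Smooth muscle and pericyte markers, 9 of 11 tested, summed to 26604 to 40393 at 6h and 12468 to 31554 at 0h, with Acta2 the largest single part of each sum and Cspg4 the 1 called, lower at 6h. The 14 myoblast markers, of which Cdh15 was called, summed to 46542 to 51615 at 6h and 40810 to 58382 at 0h. Over all probe sets, 0.646% were called higher and 0.457% lower with the block. The part of other cell types in the matrix and muscle results was not tested.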

How the data were processed

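RNA of MyoD-/- myoblast cultures was hybridised to 3 Affymetrix chips at 10 times with 3 cultures a time, and each array gave 1 column of a deposited table. The values are linear signal intensities that the authors made with MAS5, per the submitters' processing notes, and the scaling target is not given in the sources used here. Of the 24307 probe sets tested, 19865 had 1 gene symbol in GEO's platform annotation, updated through Entrez IDs to RefSeq (GRCm38.p6), 485 had several and 3957 had none.

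Per chip, log2(signal + 25th percentile) was fitted with limma 3.58.1 (R 4.3.3) on all 30 arrays with time as the factor, for 6h against 0h, and again with culture as a block. Culture names recur at each time. The 0h and 6h arrays of a culture shared a scan session, which was set by culture name where no scan date was recorded. Deviations of same-culture arrays correlated at 0.005 to 0.52 (median 0.147, 9 pairs), those of different cultures at -0.38 to 0.134 (18 pairs). On each chip 1999 had the highest same-culture value. On MG_U74Av2 and MG_U74Bv2, P6 (0.15 and 0.07) and P10 (0.277 and 0.147) lay above the values between them (0.134 and 0.047 at most). On MG_U74Cv2, P6 (0.005) and P10 (0.022) lay below them (0.031 and 0.04). The pairing of P6 and of P10 is thus weakly shown, so blocked values stand beside the others. Between 0h and 6h, culture and scan session cannot be told apart.

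The genes named were those with 1 symbol and the largest changes among the calls of either model (the largest called rise and fall, 3.77 and -2.42 on the log2 scale, were of probe sets with several symbols or none), those with the smallest p in the transient test, and the leading members of each list. Members and lists were chosen with earlier results of these data known. Other settings tried were the arrays fitted, the block, the added value, the filter, the scaling and leaving out each culture. The number of arrays limits the precision. Control probe sets were left out.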

Additional observations from a re-analysis of the deposited data

Results flagged for a closer look

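The change of Cdkn2d, the p19 member of the INK4 inhibitors, differed in culture P6 from the mean of the other cultures by -3.21 ± 0.48 on the log2 scale (SE, adjusted p = 0.044, limma). It read 1858, 610 and 1896 at 6h in cultures 1999, P6 and P10, against 697, 1818 and 280 at 0h. The change of Cdkn3, a phosphatase that acts on cyclin-dependent kinases, differed in P6 by -2.03 ± 0.31 (SE, adjusted p = 0.044, limma). It read 540, 231 and 833 at 6h, against 544, 1109 and 578 at 0h. Each was singled out because 1 culture's change differed from that of the others in a test of the difference itself, which was added after the values were seen. Each rests on 1 array of P6 at each time. With 1 array for each culture at 0h and at 6h, the SE and p hold no spread of the tested change. They measure the spread at the later times only.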

How the results depend on the processing

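The 41 probe sets called at 6h against 0h became 268 with culture as the replicate block, the pairing by culture name, and 367 with the scan session as a block. Fitted on the 6 arrays of 0h and 6h alone, 0 were called without the block and 0 with it (limma, 2157 and 2619 with unadjusted p below 0.05), and 11 were called on the 9 arrays of 0h, 6h and 12h with the block. Leaving out each culture gave 0 to 22 calls without the block, the 0 being without P10 (limma, 1374 with unadjusted p below 0.05), and 22, 136 and 14 with the block and without 1999, P6 and P10. When P6 was left out at 6h and 12h only, the counts were 87 without the block and 367 with it. An added value 4 times as large gave 73 calls, of which 38.4% were higher at 6h, against 58.5% in the reported setting. For the transient test the replicate block gave 1 call, against 0. Of the 28 named genes called with time alone, 0 held in all 3 fits that left out a culture. Other scalings, filters and the smaller added value stayed within 1.5 times of 41. Over the named genes, 3995 of 4485 alternative values neither gained nor lost a call nor moved by more than the SD over cultures, 252 gained a call and 235 lost one. Of the 229 named genes 28 were called with time alone, so most of these values had no call to lose. The 3995 therefore do not measure how stable the calls were. In 92 of the 4485 values the sign differed, none of them in a gene called in either model.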
